A study of Homo sapiens with 12 samples.

Results

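The genes described here encode collagens, laminins, fibrillins, fibronectin and integrins, the main proteins of the extracellular matrix and the receptors that hold cells to it. They were the protein-coding genes in the authors' deposited table of DHT against vehicle whose symbols follow the names of those families. That gave 33 genes of the 14559 listed there: 14 collagens, 5 laminins, 2 fibrillins with fibronectin (a group of 3), 8 integrin alpha chains and 3 integrin beta chains. RNA was read in 12 libraries of MDA-MB-453, a line established from a human breast carcinoma, given DHT (10 nM, 6 libraries) or the ethanol vehicle (0.001%, 6 libraries) for 6 h. DHT, dihydrotestosterone, is a potent natural androgen. All cells had been cultured for 72 h in DMEM (high glucose) plus 10% serum from fetal calves, so both groups also received whatever serum contains. The replicates are described as independent and made at consecutive passages, and all come from the single line, so the p-values measure the spread between passages of that line.

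Epithelial cells rest on a basement membrane, a sheet built from laminin trimers (an alpha, a beta and a gamma chain) and type IV collagen, while fibrillar collagens, fibronectin and fibrillin microfibrils fill the connective tissue beyond it. Cells bind these proteins through integrins, each a pair of an alpha and a beta chain, and the pair decides which matrix protein is bound. In the mammary gland, fibroblasts make most of the fibrillar matrix, and epithelial cells add basement membrane components and carry the integrins that bind laminin and collagen.

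Total counts were 14774705 ± 5938633 in DHT libraries and 13188437 ± 4570209 in vehicle libraries (SD, n = 6 each). The deepest library was DHT replicate 2, with 25678781 counts, and the shallowest was vehicle replicate 6, with 4346465. Levels are given as CPM, counts scaled to a common library total with TMM factors, and, where genes are compared with each other, as CPM per kb of gene length. Both replicate 2 libraries lay far from the rest on principal component 1 (51.1% of variance). They were both the lowest of their groups for 9 members and both the highest for 4 members, beside 25.5% and 26.6% of all tested genes. Luminal epithelial markers summed to between 3735 and 7506 CPM in DHT libraries and between 5051 and 10560 CPM in vehicle libraries, with all 10 found in every library and KRT19, a luminal keratin gene, the highest per length. FOXA1 and GATA3, transcription factors of luminal cells, fell with DHT (log2 fold changes -0.75, adjusted p = 0.00463, and -0.59, adjusted p = 0.0253). The estrogen receptor gene ESR1, which the line is known to lack, stayed at or under 0.337 CPM in DHT libraries and 0.641 CPM in vehicle libraries.

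The line expressed a restricted set of these genes. Of 82 genes in the counts table with family names of this pattern, 37 averaged at least 1 CPM in vehicle libraries, the 33 members among them, and 34 did so in DHT libraries. The other 4 were COL4A1, COL6A1, COL6A2 and ITGB2, of which COL4A1 and COL6A2 stayed under 1 CPM in each of vehicle replicates 1 to 3. The members were taken from the authors' deposited table, which lists 14559 genes against 60670 in the counts table. The lowest member there, ITGA7, averages 0.65 log2 CPM, so that all 33 members reached 1 CPM is no separate finding. At a minimum of 10 CPM, 13 genes passed in DHT libraries and 15 in vehicle libraries. COL6A5, COL22A1, LAMB4 and ITGA8 had 0 counts in all 12 libraries, which allows a level of up to 0.0182 CPM (3 counts over all libraries, counting error only).

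Laminin genes were led by LAMB2, which encodes the laminin β2 chain. LAMB2 averaged 28.9 ± 4.40 CPM per kb in DHT libraries and 34.2 ± 3.59 CPM per kb in vehicle libraries (SD, n = 6 each), the highest vehicle level among the members. LAMA5, the laminin α5 chain of mature epithelial basement membranes, followed at 7.25 ± 2.61 CPM per kb in DHT libraries and 7.93 ± 2.39 CPM per kb in vehicle libraries. LAMC1, the γ1 chain shared by most laminins, stood at 2.56 ± 0.537 CPM per kb with DHT and 2.11 ± 0.331 CPM per kb with vehicle. Within each library, LAMB2 exceeded LAMB1, the alternative β1 chain, by a median of 24.3 times in DHT libraries (18.2 to 28.1) and 20.1 times in vehicle libraries (15.6 to 27.97), per length. The α5 and β2 chains were the most abundant of their kinds. LAMB3, the β3 chain of the laminin under skin and glandular epithelium, was far lower at 0.254 ± 0.109 CPM per kb with DHT and 0.379 ± 0.231 CPM per kb with vehicle. Its partner chain LAMA3 averaged 0.00672 CPM per kb in DHT libraries (0.0987 CPM), against 0.00796 CPM per kb in vehicle libraries (0.117 CPM).

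**Figure D1:**
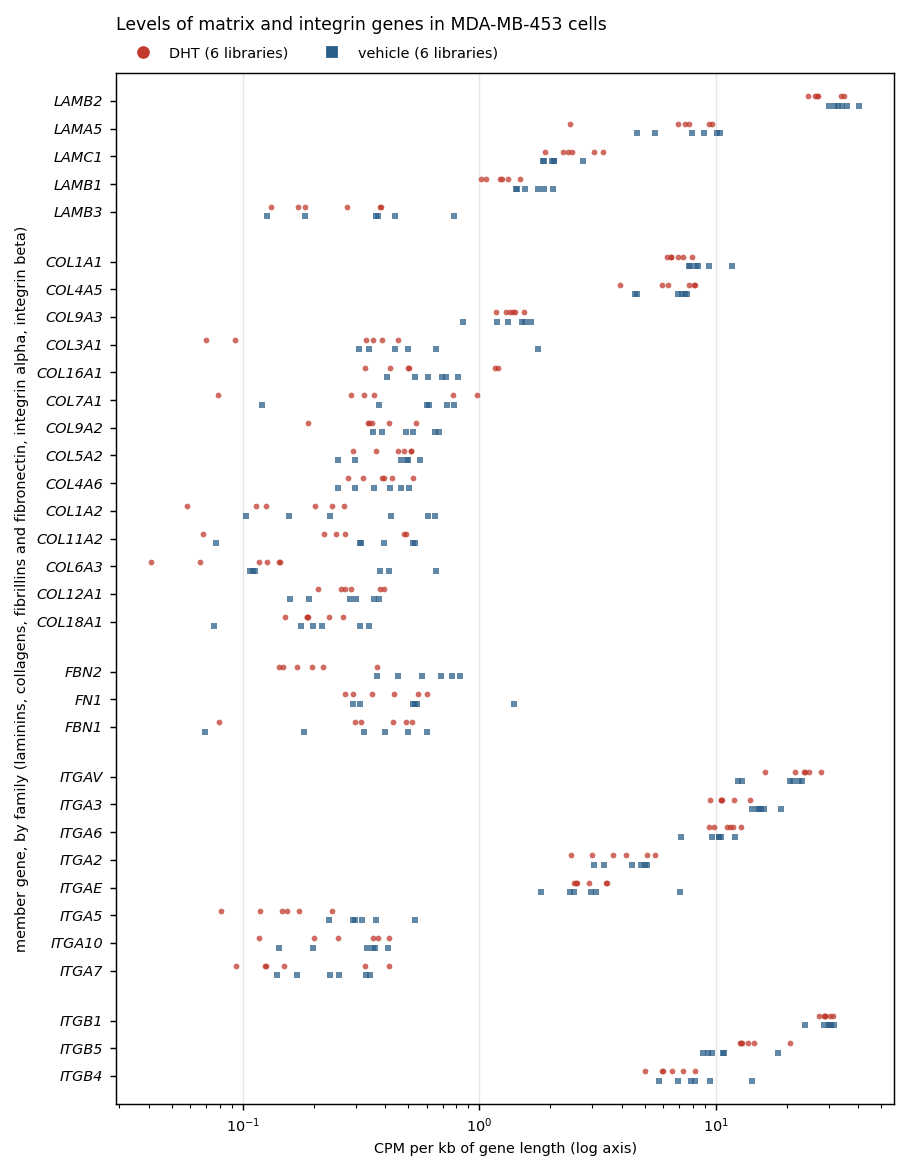
Level of each member gene in each of 12 libraries, in CPM per kb of gene length on a log axis; round points are the 6 DHT libraries and square points the 6 vehicle libraries, and genes are ordered within each family by their vehicle mean. LAMB2, ITGB1 and ITGAV lie furthest right, while the fibrillins, fibronectin and most collagens average under 1 CPM per kb.

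Collagen genes divided into a few that were well expressed and many near the limit of detection. COL1A1, the α1 chain of fibrillar type I collagen, averaged 6.89 ± 0.642 CPM per kb with DHT and 8.87 ± 1.53 CPM per kb with vehicle, although its partner COL1A2 averaged 0.167 ± 0.0811 CPM per kb with DHT and 0.363 ± 0.234 CPM per kb with vehicle. Type I collagen is normally a trimer of both chains, and here the COL1A1 level was 26.1 to 111 times that of COL1A2 in DHT libraries and 12.7 to 114 times in vehicle libraries, where vehicle replicates 4 to 6 held the highest COL1A2 levels (described further on). COL4A5, the α5 chain of type IV collagen, averaged 6.67 ± 1.65 CPM per kb with DHT and 6.37 ± 1.39 CPM per kb with vehicle, and was the highest of the type IV collagen genes. COL4A1, one of the chains found in nearly all basement membranes, averaged 0.0289 CPM per kb with DHT and 0.0716 CPM per kb with vehicle. Not divided by length, COL4A1 had 0.135 to 0.802 CPM in DHT libraries. In vehicle libraries it had 1.62 to 1.92 CPM in replicates 4 to 6 and 0.222 to 0.495 CPM in replicates 1 to 3. COL9A3, a chain of type IX collagen known from cartilage, came next among collagens at 1.36 ± 0.121 CPM per kb with DHT and 1.35 ± 0.295 CPM per kb with vehicle. Its partner COL9A2 stood at 0.363 ± 0.115 CPM per kb with DHT and 0.514 ± 0.132 CPM per kb with vehicle, and the remaining partner COL9A1 had 1 count over the DHT libraries and 0 counts over the vehicle libraries. The other collagen members, COL3A1, COL5A2, COL6A3, COL7A1, COL11A2, COL12A1, COL16A1, COL18A1 and COL4A6, averaged under 1 CPM per kb in both groups.

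COL4A5 and COL4A6 lie head to head on chromosome X and are transcribed away from each other. In the authors' deposited table COL4A6 runs from 108155607 to 108439497 on the minus strand and COL4A5 from 108439838 to 108697545 on the plus strand (GRCh38), with 340 bases between them. Their RefSeq start sites (GRCh38.p14) are 379 bases apart, and the 250 bases before each start share 121 bases. These windows are shown because the pair differs widely in level while sharing upstream sequence. The shared stretch is in capitals and reads as opposite strands in the pair. COL4A5 is from chrX:108439588-108439837 (plus strand) and COL4A6 from chrX:108439459-108439708 (minus strand), each written 5′ to 3′ towards its start site.
COL4A5 upstream: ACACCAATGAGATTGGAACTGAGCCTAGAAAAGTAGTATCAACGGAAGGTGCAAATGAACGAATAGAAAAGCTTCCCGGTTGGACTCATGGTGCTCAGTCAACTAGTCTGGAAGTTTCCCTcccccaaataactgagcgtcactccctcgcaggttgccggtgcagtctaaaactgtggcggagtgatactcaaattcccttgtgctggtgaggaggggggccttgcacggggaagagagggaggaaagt
COL4A6 upstream: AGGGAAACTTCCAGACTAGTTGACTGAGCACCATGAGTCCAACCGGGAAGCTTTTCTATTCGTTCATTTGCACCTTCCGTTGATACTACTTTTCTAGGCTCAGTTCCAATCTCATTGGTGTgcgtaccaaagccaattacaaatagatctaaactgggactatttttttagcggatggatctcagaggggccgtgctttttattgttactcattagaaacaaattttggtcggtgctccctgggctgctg
The COL4A5 level per kb was a median of 15.6 times that of COL4A6 in DHT libraries (14.0 to 25.4) and 15.5 times in vehicle libraries (12.96 to 27.2). Neither gene passed the test with DHT. Between groups, COL4A5 gave a log2 difference of 0.07 (SE 0.19, adjusted p = 0.959) and COL4A6 one of -0.003 (SE 0.20, adjusted p = 0.998).

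Integrin chains made up most of the upper part of the order. ITGB1, the β1 chain that pairs with most alpha chains, averaged 29.3 ± 1.39 CPM per kb with DHT and 29.2 ± 2.79 CPM per kb with vehicle. ITGAV, the αV chain of receptors for fibronectin and vitronectin, averaged 23.0 ± 3.97 CPM per kb with DHT and 18.8 ± 4.81 CPM per kb with vehicle. ITGB5, a β chain that pairs with αV, averaged 14.5 ± 3.09 CPM per kb with DHT and 11.3 ± 3.54 CPM per kb with vehicle. The laminin-binding alpha chains ITGA3 and ITGA6 averaged 11.2 ± 1.58 and 11.1 ± 1.28 CPM per kb in DHT libraries, against 15.8 ± 1.59 and 9.98 ± 1.62 CPM per kb in vehicle libraries. ITGB4, the hemidesmosome chain that pairs with ITGA6, stood at 6.49 ± 1.12 CPM per kb with DHT and 8.74 ± 2.98 CPM per kb with vehicle. ITGA2, an alpha chain of a collagen receptor, stood at 3.996 ± 1.20 CPM per kb with DHT and 4.30 ± 0.885 CPM per kb with vehicle. In the order of vehicle levels, only the step from ITGB1 to ITGAV separated neighbouring members without overlap between their vehicle libraries.

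ITGAE, the alpha chain best known from T cells of epithelia, averaged 2.92 ± 0.438 CPM per kb with DHT and 3.31 ± 1.88 CPM per kb with vehicle. Its only known partner ITGB7 had 3 counts over the DHT libraries and 2 counts over the vehicle libraries. The 7 leukocyte markers, with CD3E at 0 in every library, summed to at most 0.540 CPM in a DHT library and at most 0.855 CPM in a vehicle library. The remaining alpha chains were low. ITGA5, the alpha chain of the classical fibronectin receptor, averaged 0.152 ± 0.0533 CPM per kb with DHT and 0.339 ± 0.104 CPM per kb with vehicle, and ITGA7 and ITGA10, alpha chains of laminin and collagen receptors, lay below 0.31 CPM per kb in both groups.

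Fibronectin and the fibrillins were scarce. FN1, which encodes fibronectin, averaged 0.417 ± 0.136 CPM per kb with DHT and 0.601 ± 0.408 CPM per kb with vehicle. FBN1, the main fibrillin of adult microfibrils, averaged 0.356 ± 0.162 CPM per kb with DHT and 0.346 ± 0.198 CPM per kb with vehicle. FBN2, the fibrillin of developing tissue, averaged 0.208 ± 0.0848 CPM per kb with DHT and 0.613 ± 0.180 CPM per kb with vehicle. Within a library the FBN1 level was a median of 1.92 times that of FBN2 with DHT (0.405 to 3.43) and 0.585 times with vehicle (0.101 to 0.884).

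With DHT, 3 of the 33 members fell and 0 rose. The test was edgeR's quasi-likelihood test with Benjamini-Hochberg adjustment over 16355 genes and a threshold of 0.05, under which 0.88% of all genes were lower and 1.96% higher. The members that fell were FBN2, ITGA5 and ITGA3, that is 1 of 3 genes in the fibrillin and fibronectin group and 2 of 8 integrin alpha chains. None of the 14 collagens, 5 laminins or 3 integrin beta chains passed in this edgeR fit, which used group only. A fit that also took the replicate number into account called some of them, as given in the last paragraph. At an unadjusted p under 0.05, 9 members were lower and 0 higher, beside 5.41% and 6.59% of all genes. Those 9 were the 3 above with LAMB1, COL1A1, COL1A2, COL3A1, COL6A3 and ITGB4. DESeq2 called 5 members lower and 0 higher, adding LAMB1 and COL6A3, beside 1.73% and 3.12% of all genes, and limma-voom called the same 3 genes as edgeR, beside 0.893% lower and 1.91% higher. At an adjusted p under 0.05, the authors' deposited table has 5 members lower and 0 higher, namely FBN2, ITGA5, COL1A2, ITGA3 and COL6A3, beside 1.59% and 2.66% of the genes listed there. Log2 fold changes, DHT over vehicle, were negative for 22 of 33 members (66.7%) and for 58.2% of all tested genes, with medians of -0.19 over the members and -0.05 over all genes. Without vehicle replicates 4, 5 and 6, which were picked for their high collagen and fibroblast marker levels (described further on), edgeR called FBN2 lower and 0 members higher, beside 0.323% and 0.54% of genes. Without both replicate 2 libraries it called the same 3 members lower and ITGB5 higher, beside 1.9% and 3.7% of genes.

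**Figure D2:**
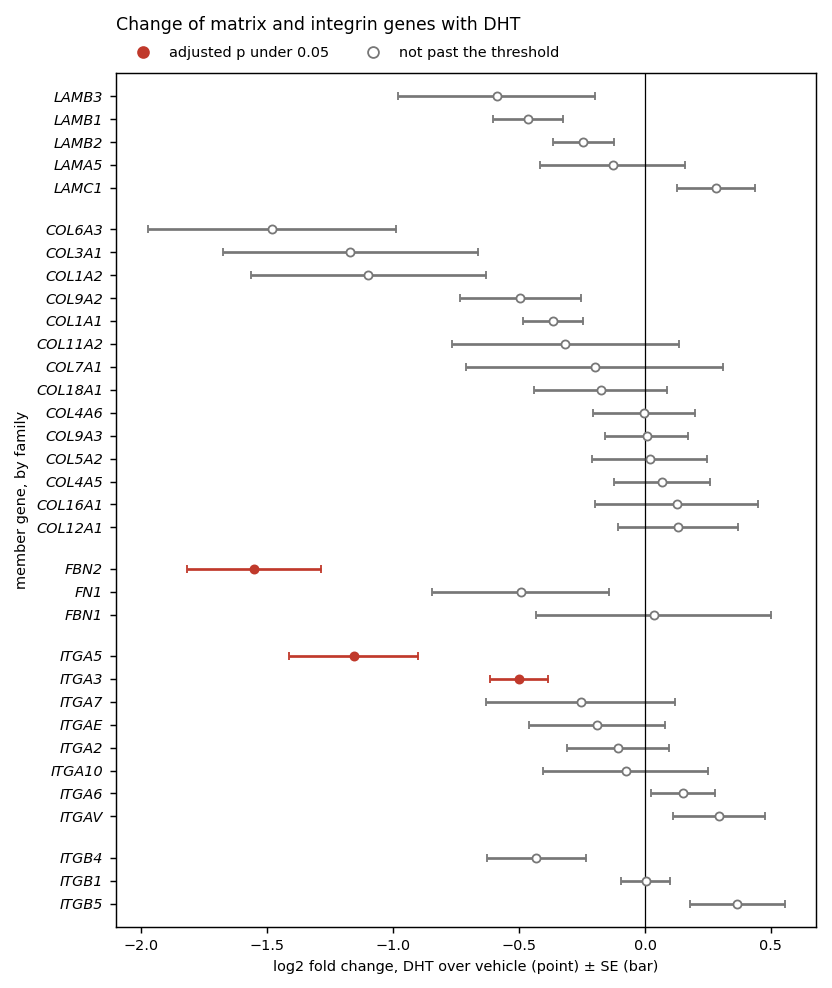
Log2 fold change of each member, DHT over vehicle, on 6 DHT and 6 vehicle libraries. Bars are ± 1 standard error, derived from the F statistic of edgeR's quasi-likelihood test. Filled points passed an adjusted p of 0.05 and open points did not. FBN2 at -1.55, ITGA5 at -1.16 and ITGA3 at -0.50 are filled, and COL6A3 at -1.48, COL3A1 at -1.17 and COL1A2 at -1.10 are open, with wider bars.

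FBN2 had the largest change of the 3 members that fell. Its lowest, median and highest levels were 1.89, 2.42 and 4.90 CPM in DHT libraries, against 4.89, 8.33 and 10.96 CPM in vehicle libraries. The groups met at a single point, where DHT replicate 3 and vehicle replicate 5 held almost the same level, and the other DHT libraries lay below all vehicle libraries. The fitted log2 fold change was -1.55 (SE 0.27, adjusted p = 0.00488), resting on 252 counts over the DHT libraries and 636 over the vehicle libraries. The call was kept with each library left out in turn (adjusted p from 0.00161 to 0.0176). With vehicle replicates 4, 5 and 6 left out, the log2 fold change was -1.73 (adjusted p = 0.0239). FBN2 lies on the minus strand of chromosome 5, from 128257909 to 128659185 in the authors' deposited table.

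ITGA5 fell at a low level of expression. Its lowest, median and highest levels were 0.596, 1.11 and 1.76 CPM in DHT libraries, against 1.71, 2.28 and 3.93 CPM in vehicle libraries. Only the highest DHT library, replicate 5, reached the lowest vehicle library, replicate 6. The log2 fold change was -1.16 (SE 0.26, adjusted p = 0.0246), on 102 counts over the DHT libraries and 197 over the vehicle libraries. The call was lost when vehicle replicate 3 was left out, or any of DHT replicates 1, 3, 4 and 6 (adjusted p from 0.0579 to 0.0679), with no filter on low counts (adjusted p = 0.0539) and without vehicle replicates 4, 5 and 6 (-1.35, adjusted p = 0.0781). ITGA5 lies on the minus strand of chromosome 12, from 54395261 to 54419266 in the authors' deposited table.

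ITGA3, the alpha chain of the main epithelial laminin receptor, had the smallest fold but the highest level of the 3. It had 92.2, 104 and 137 CPM as the lowest, median and highest of the DHT libraries, against 139, 150 and 184 CPM in the vehicle libraries. Every DHT library lay below every vehicle library, which held for no other member and, in that direction, for 0.991% of all tested genes. The log2 fold change was -0.50 (SE 0.11, adjusted p = 0.0302), on 9621 counts over the DHT libraries and 11823 over the vehicle libraries. The call was lost when any of vehicle replicates 1, 3 and 6 or DHT replicates 1, 3, 4 and 6 was left out (adjusted p from 0.0536 to 0.0863), with library totals in place of TMM scaling (-0.43, adjusted p = 0.114), with no filter on low counts (-0.49, adjusted p = 0.148) and without vehicle replicates 4, 5 and 6 (-0.56, adjusted p = 0.117). ITGA3 lies on the plus strand of chromosome 17, from 50055968 to 50090481 in the authors' deposited table, with 93619 bases between it and COL1A1.

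**Figure D3:**
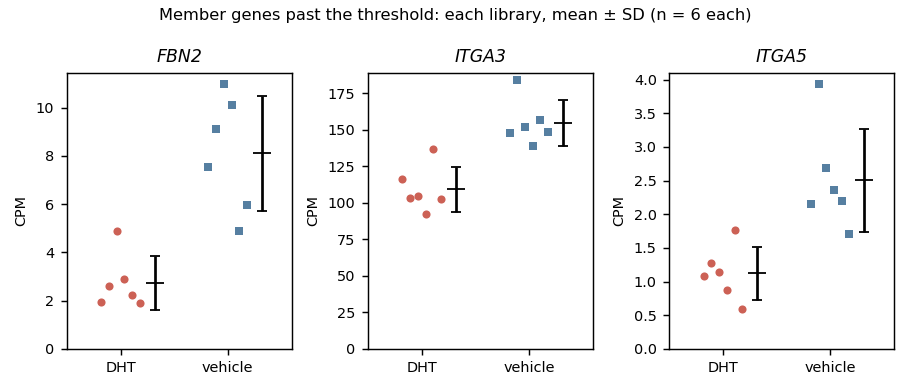
CPM of FBN2, ITGA3 and ITGA5 in each library, with DHT (round points) left of vehicle (square points) and black bars for the mean ± SD of 6 libraries; each vertical axis starts at 0 and has its own scale. ITGA3 separates the groups fully, at 92.2 to 137 CPM with DHT and 139 to 184 CPM with vehicle, while FBN2 and ITGA5 meet at 1 library a side.

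RefSeq promoter windows (GRCh38.p14, 250 bases before a start site and 50 after it) were at hand for 25 of the 33 members, in 37 windows. COL1A1, COL1A2, COL3A1, COL5A2, COL9A3, ITGA3, ITGA7 and ITGB4 were not searched. The 250 bases before the start are shown for the members that fell and have a window, FBN2 at chr5:128538246-128538495 and ITGA5 at chr12:54419267-54419516, both on the minus strand and written 5′ to 3′. Capitals mark GC boxes, GGGCGG or its complement CCGCCC. The FBN2 start site of this window, 128538245, lies inside the gene as the authors' deposited table bounds it.
FBN2 upstream: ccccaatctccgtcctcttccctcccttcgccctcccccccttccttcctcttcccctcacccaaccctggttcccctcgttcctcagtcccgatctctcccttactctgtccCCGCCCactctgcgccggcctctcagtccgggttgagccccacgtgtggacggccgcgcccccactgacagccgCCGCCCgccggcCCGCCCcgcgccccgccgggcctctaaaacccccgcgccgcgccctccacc
ITGA5 upstream: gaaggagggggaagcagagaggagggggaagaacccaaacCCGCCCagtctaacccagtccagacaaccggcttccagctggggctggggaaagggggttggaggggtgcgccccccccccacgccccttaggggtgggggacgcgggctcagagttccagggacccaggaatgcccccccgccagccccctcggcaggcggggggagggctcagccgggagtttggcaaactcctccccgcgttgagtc
The FBN2 stretch holds 3 GC boxes in 72.8% G and C, and the ITGA5 stretch holds 1 in 70.0%. The median G and C content before the start was 58.0% over all windows. Over all windows, the GC box was found in 70.3% of member windows and 44.9% of all 34943 windows. The AP-2 motif GCCNNNGGC was in 32.4% of member windows and 23.2% of all windows, and the TATA box TATAAA in 10.8% of member windows and 11.6% of all windows. Both strands were searched. The members are expressed genes, while all windows were taken without regard to expression, so these shares compare unlike sets of genes. No set of expressed genes was searched beside the members. Neither the FBN2 nor the ITGA5 stretch held a GCCNNNGGC or TATAAA.

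The other integrin chains did not pass in edgeR's group-only fit with all libraries. ITGB5 had the largest positive change of all members, with 82.1, 86.5 and 135 CPM as the lowest, median and highest of the DHT libraries and 57.3, 66.3 and 119 CPM in the vehicle libraries. The highest library of each group was replicate 2, and without them the DHT libraries lay above the vehicle libraries. The log2 fold change was 0.37 (SE 0.19, adjusted p = 0.495) with all libraries and 0.43 (adjusted p = 0.012) without both replicate 2 libraries. ITGB4 had 34.1, 42.3 and 55.4 CPM as the lowest, median and highest with DHT, against 38.9, 54.1 and 96.5 CPM with vehicle, and the groups overlapped (log2 fold change -0.43, SE 0.20, adjusted p = 0.394). ITGAV had 133, 195 and 230.0 CPM as the lowest, median and highest with DHT, against 102, 172 and 190 CPM with vehicle, and replicate 2 was the lowest library of each group. The change of ITGAV was 0.29 (SE 0.18, adjusted p = 0.638) and that of ITGB1 0.002 (SE 0.10, adjusted p = 0.998). ITGA6, ITGA2, ITGA7, ITGA10 and ITGAE lay between -0.26 and 0.15 on the log2 scale, with adjusted p of at least 0.80. The ratio of ITGA3 to ITGA6, the main laminin-binding alpha chains, was a median of 0.979 per kb in DHT libraries (0.819 to 1.49) and 1.54 in vehicle libraries (1.18 to 2.26).

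Basal and myoepithelial cells of the gland carry many laminin-binding integrins, and their markers are given beside these results. The 10 marker genes summed to between 14.3 and 23.3 CPM in DHT libraries and between 23.1 and 37.8 CPM in vehicle libraries, 7 of them were found in every library, and none was at 0 throughout. TP63, the transcription factor of basal cells, averaged 1.46 ± 0.137 CPM with DHT and 8.80 ± 1.91 CPM with vehicle, the only basal marker past the threshold of 5 tested (log2 fold change -2.58, adjusted p = 2.41e-06). TAGLN, a smooth muscle protein gene and the highest of the list per length, had a log2 difference of 0.09 (SE 0.23, adjusted p = 0.955). Of the 5 tested markers, 3 had negative log2 fold changes, and OXTR and TAGLN had positive ones. The keratin genes KRT5, KRT14 and KRT17 averaged 0.209, 0.0361 and 0.341 CPM with DHT, against 0.957, 0.363 and 0.410 CPM with vehicle. These keratin genes were too low to be tested. The marker sum includes TP63. In bulk RNA, fewer cells of a type and less RNA per cell cannot be told apart, and the part of these markers in the integrin and laminin results was not tested.

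Among laminins, LAMB1 came nearest to the threshold. It had 8.23, 9.92 and 11.96 CPM as the lowest, median and highest of the DHT libraries, against 11.5, 13.5 and 16.6 CPM in the vehicle libraries. The groups overlapped only because DHT replicate 3 reached the lower vehicle libraries. The log2 fold change was -0.46 (SE 0.14, adjusted p = 0.115) by edgeR, and DESeq2 gave an adjusted p of 0.0446. The change of LAMB2 was -0.25 (SE 0.12, adjusted p = 0.469), that of LAMA5 -0.13 (SE 0.29, adjusted p = 0.946) and that of LAMC1 0.28 (SE 0.15, adjusted p = 0.545). LAMC1, the only laminin with a positive value, had 16.03, 20.4 and 28.3 CPM as the lowest, median and highest with DHT, against 15.7, 17.3 and 23.3 CPM with vehicle. LAMB3 gave -0.59 (SE 0.39, adjusted p = 0.678). All 5 laminins overlapped between groups.

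Collagen log2 fold changes ran from -1.48 to 0.13, with 9 of 14 negative. The lowest, COL6A3, COL3A1 and COL1A2, did not pass in edgeR's group-only fit. DESeq2 called COL6A3 (adjusted p = 0.042), and the authors' deposited table called COL6A3 (adjusted p = 0.035) and COL1A2 (adjusted p = 0.0258). The fit with the replicate number called each of them lower, as given in the last paragraph. COL6A3, the α3 chain of the microfibrillar type VI collagen, had 0.797, 2.37 and 2.81 CPM as the lowest, median and highest of the DHT libraries, against 2.10, 4.78 and 12.8 CPM in the vehicle libraries. Vehicle replicates 4, 5 and 6 held 12.8, 7.38 and 8.12 CPM, and vehicle replicates 1 to 3 held 2.10 to 2.19 CPM. The DHT libraries were split at the same replicate numbers, with 2.45 to 2.81 CPM in DHT replicates 4 to 6 and 0.797 to 2.28 CPM in DHT replicates 1 to 3. The log2 fold change was -1.48 (SE 0.49, adjusted p = 0.172) with all libraries. Without vehicle replicates 4, 5 and 6 it was -0.08 (SE 0.36), but these were left out for being the highest vehicle libraries while DHT replicates 4 to 6 stayed in, so that a smaller difference follows from the choice.

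COL1A2, COL3A1 and the type VI partners COL6A1 and COL6A2 showed the same libraries on top. COL1A2 stood at 2.19 to 2.89 CPM in DHT replicates 4 to 6 and 0.626 to 1.35 CPM in DHT replicates 1 to 3, against 4.60 to 7.05 CPM in vehicle replicates 4 to 6 and 1.11 to 2.52 CPM in vehicle replicates 1 to 3. COL3A1, the chain of type III collagen, reached 11.96 CPM in vehicle replicate 6, with a DHT range of 0.472 to 3.08 CPM and 2.10 to 2.97 CPM in vehicle replicates 1 to 3. The log2 fold changes of COL1A2 and COL3A1 were -1.10 (SE 0.47, adjusted p = 0.344) and -1.17 (SE 0.51, adjusted p = 0.355) with all libraries. COL6A1, which is not a member, had a DHT range of 0.501 to 1.39 CPM, 3.63 to 5.90 CPM in vehicle replicates 4 to 6 and 0.899 to 1.63 CPM in vehicle replicates 1 to 3 (log2 fold change -1.62, adjusted p = 0.077). COL6A2, which was too low to be tested, had 0.270 to 0.893 CPM with DHT, 3.36 to 4.79 CPM in vehicle replicates 4 to 6 and 0.371 to 0.495 CPM in vehicle replicates 1 to 3.

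The same 3 vehicle libraries held the highest summed levels of 11 fibroblast markers. The sum was 2.80 to 2.98 CPM in DHT replicates 4 to 6 and 1.15 to 2.28 CPM in DHT replicates 1 to 3, against 5.75, 5.19 and 11.96 CPM in vehicle replicates 4, 5 and 6 and 2.10 to 3.75 CPM in vehicle replicates 1 to 3. Replicates 4 to 6 thus held the higher sums in both groups. POSTN, DCN and LUM of these markers also belong to the list of other matrix proteins described further on, so the sum is partly of matrix genes. Of these markers 4 were found in every library, TWIST2 was at 0 in all, and POSTN, a matrix protein gene, was the highest per length. It had 0.337, 1.18 and 1.29 CPM as the lowest, median and highest with DHT, against 0.511, 0.790 and 5.13 CPM with vehicle, where a single library at 5.13 CPM set the group's mean. POSTN rested on 83 counts over the DHT libraries and 85 over the vehicle libraries. The 7 endothelial markers summed to 2.63 to 4.67 CPM with DHT and 2.76 to 5.90 CPM with vehicle, with ESAM the highest per length, and 0 of the 2 tested passed. The part of fibroblast RNA in the collagen differences was not tested.

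**Figure D4:**
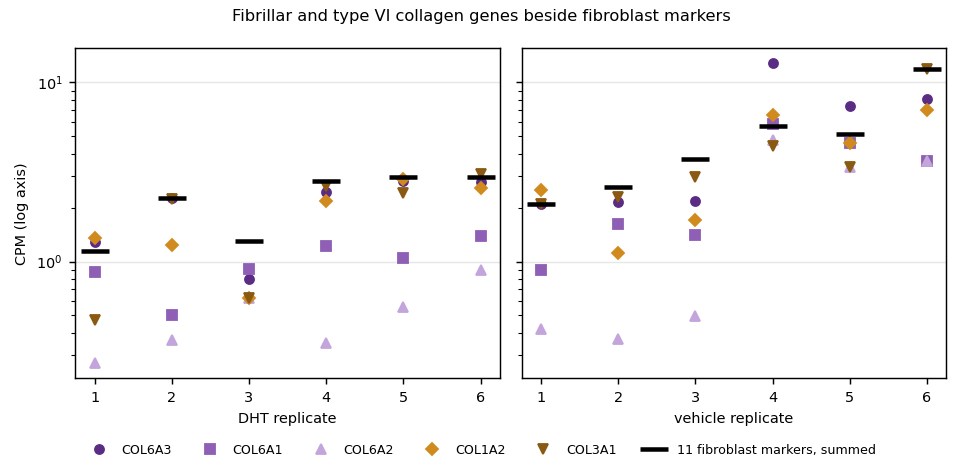
CPM of COL6A3, COL6A1, COL6A2, COL1A2 and COL3A1 (points) and the summed CPM of 11 fibroblast markers (black bars) in each library on a log axis, DHT libraries left and vehicle libraries right. Vehicle replicates 4, 5 and 6 stand above the other vehicle libraries and all DHT libraries for COL6A3 (7.38 to 12.8 CPM), for COL6A1, COL6A2 and COL1A2, and for the marker sum.

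COL1A1, the other chain of type I collagen, had 56.1, 60.5 and 71.5 CPM as the lowest, median and highest of the DHT libraries, against 69.2, 74.9 and 106 CPM in the vehicle libraries, with 69.2 to 84.7 CPM in vehicle replicates 4 to 6 and 69.96 to 106 CPM in vehicle replicates 1 to 3. Only DHT replicate 2 reached into the vehicle range. The log2 fold change was -0.37 (SE 0.12, adjusted p = 0.166), and -0.43 (adjusted p = 0.264) without vehicle replicates 4, 5 and 6. The fit with the replicate number called COL1A1 lower, as given in the last paragraph. COL9A2 had 0.794, 1.47 and 2.28 CPM as the lowest, median and highest with DHT, against 1.495, 2.14 and 2.85 CPM with vehicle, and gave -0.50 (SE 0.24, adjusted p = 0.452), and COL11A2, COL7A1, COL18A1, COL9A3, COL5A2, COL16A1 and COL12A1 lay between -0.32 and 0.13, with adjusted p of at least 0.902. COL7A1, the anchoring fibril collagen of epithelium, spread widely within groups, at 0.866 to 10.9 CPM with DHT and 1.34 to 8.63 CPM with vehicle, with replicate 2 the lowest library of each group. FN1 had 4.65, 6.80 and 10.3 CPM as the lowest, median and highest with DHT, against 5.04, 9.10 and 24.1 CPM with vehicle, where replicate 6 was the highest (log2 fold change -0.49, SE 0.35, adjusted p = 0.718). FBN1 gave 0.03 (SE 0.47, adjusted p = 0.994).

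Proteins that work with the members were described by 5 lists written from general knowledge, but with earlier results of these data known. Of 46 other matrix proteins, 25 were tested, 0 rose and 1 fell, beside 1.96% and 0.88% of all genes. Their median log2 fold change was -0.42, beside -0.05 over all genes. TNC, which encodes the adhesion-modulating glycoprotein tenascin C, fell to 347 ± 43.6 CPM with DHT, against 607 ± 101 CPM with vehicle (-0.81 on the log2 scale, SE 0.14, adjusted p = 0.00555), with no overlap between groups. TNC and THBS1, the gene of the matrix glycoprotein thrombospondin, were the highest of the list per length. THBS1 averaged 78.4 CPM per kb with DHT and 118 CPM per kb with vehicle, above every member, with a change of -0.59 on the log2 scale that missed the threshold (SE 0.25, adjusted p = 0.351). At an unadjusted p under 0.05, 10 of the list were lower and 3 higher, beside 5.41% and 6.59% of all genes, and DESeq2 called 3 lower and 1 higher, beside 1.73% and 3.12%.

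Of 32 genes for collagen processing and crosslinking, 20 were tested, 1 rose and 1 fell, beside 1.96% and 0.88% of all genes. Their median log2 fold change was -0.08, beside -0.05 over all genes. LOXL1, a lysyl oxidase that crosslinks elastic fibres, fell to 1.37 ± 0.174 CPM with DHT, against 2.44 ± 0.213 CPM with vehicle (log2 fold change -0.85, SE 0.16, adjusted p = 0.00819). COLGALT1, which adds galactose to collagen in the endoplasmic reticulum, rose to 96.6 ± 7.76 CPM with DHT, against 73.9 ± 3.64 CPM with vehicle (log2 fold change 0.39, SE 0.09, adjusted p = 0.0316). Its call was lost in 8 of 12 fits that left out 1 library, namely those without vehicle replicates 1, 3, 4 and 6 and without DHT replicates 1, 3, 5 and 6 (adjusted p from 0.0515 to 0.0921). PPIB and P4HB, folding enzymes that serve many secreted proteins, were the highest of the list at 149 and 133 CPM per kb with DHT and 151 and 147 CPM per kb with vehicle.

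Of 34 matrix proteases and inhibitors, 15 were tested and none passed in edgeR's group-only fit, beside 0.88% lower and 1.96% higher over all genes. At an unadjusted p under 0.05, 2 were lower and 0 higher, beside 5.41% and 6.59% of all genes. DESeq2 called 0 in either direction, beside 1.73% lower and 3.12% higher. A fit that also took the replicate number into account called 5 lower and 0 higher, beside 3.19% and 4.67% of all genes. Without both replicate 2 libraries, the group-only fit called 1 lower and 0 higher, beside 1.9% and 3.7%. The median log2 fold change was -0.28, beside -0.05 over all genes. ADAM15 and MMP15, membrane-bound metalloproteinase genes, were the highest per length at 43.1 and 26.4 CPM per kb with DHT and 43.5 and 27.8 CPM per kb with vehicle.

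Of 40 genes of the adhesion complex that forms on the inner side of integrins, 33 were tested. Among these 2 rose and 1 fell, beside 1.96% and 0.88% of all genes. Their median log2 fold change was -0.003, beside -0.05 over all genes. PTK2B, the kinase PYK2 related to focal adhesion kinase, rose to 22.8 ± 2.18 CPM with DHT, against 11.1 ± 2.00 CPM with vehicle, and its groups did not overlap (log2 fold change 1.05, SE 0.14, adjusted p = 8.19e-04). The tensins TNS3 and TNS2, adaptors that bind integrin tails, moved in opposite directions. TNS3 rose to 30.3 ± 4.83 CPM with DHT, against 19.98 ± 3.03 CPM with vehicle (log2 fold change 0.60, SE 0.14, adjusted p = 0.0328), a call lost when any of vehicle replicates 3, 4 and 6 or DHT replicates 1, 3, 5 and 6 was left out (adjusted p from 0.0644 to 0.0878). TNS2 fell to 15.6 ± 1.54 CPM with DHT, against 26.1 ± 5.81 CPM with vehicle (log2 fold change -0.74, SE 0.15, adjusted p = 0.0126). FLNA and ACTN4, actin crosslinkers, were the highest per length at 159 and 47.4 CPM per kb with DHT and 191 and 52.8 CPM per kb with vehicle.

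Of 23 other matrix receptors and hemidesmosome genes, 20 were tested, 0 rose and 1 fell, beside 1.96% and 0.88% of all genes. Their median log2 fold change was -0.20, beside -0.05 over all genes. GPC4, a membrane heparan sulfate proteoglycan, fell to 11.4 ± 1.38 CPM with DHT, against 20.6 ± 2.40 CPM with vehicle (-0.85 on the log2 scale, SE 0.12, adjusted p = 0.00137), with no overlap between groups. At an unadjusted p under 0.05, 3 were lower and 0 higher, beside 5.41% and 6.59% of all genes. DESeq2 called 2 lower and 0 higher, beside 1.73% and 3.12% of all genes. CD9 and CD151, tetraspanins that associate with integrins, were the highest per length at 195 and 111 CPM per kb with DHT and 168 and 128 CPM per kb with vehicle. Their log2 fold changes were 0.22 (adjusted p = 0.743) and -0.21 (adjusted p = 0.898).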

How the data were processed

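RNA-seq of 6 DHT and 6 vehicle libraries of MDA-MB-453 cells was analysed from 2 deposited tables. Per the submitters' processing notes, STAR and featureCounts were used with GRCh38, and neither versions nor options are given in the sources used here. The counts deposited by the authors were taken as estimated counts, since between 39.6% and 46.7% of the nonzero entries per library had a fractional part (tolerance 0.005), and they were rounded before testing. Fractional parts made up at most 1.01% of a member's counts (ITGA5). A record of 1 gene broken over 3 lines was left out, which left 60670 genes. Whether strand was counted is not given, so antisense partners cannot be told apart. Per the labels, libraries were made from 1 µg of RNA with a total RNA kit and read as single 40 bp reads, while the design text names poly-A RNA.

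The second table holds the authors' own comparison as log2 fold changes with p-values, raw and adjusted, per the file headers, with the model not given. Its GC percent and length columns, deposited by the authors, served for offsets and covered 89.0% of tested genes. CPM values were computed from rounded counts over TMM-scaled totals, and CPM per kb with the deposited gene length.

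Low genes were removed with filterByExpr (R 4.3.3) and the rest tested with edgeR 4.0.16 (quasi-likelihood, group only, Benjamini-Hochberg, 0.05), and all 33 members passed the filter. Alternatives were DESeq2 1.42.0, limma-voom 3.58.1, other scalings, filters and thresholds, a replicate block and each library left out. Offsets for GC and length (5 spline degrees of freedom) and leaving out vehicle replicates 4, 5 and 6 were added after seeing the data. Scripts were tested on simulated data. The members, lists and markers were chosen with earlier results of these data known, so nothing here is independent support for a pattern seen before. Named genes are all members and, from each list, up to 3 higher and 3 lower genes past the threshold and the 2 of highest CPM per kb. COL6A1, COL6A2, COL4A1, partner chains of members and single libraries named with a result were chosen after their values were seen. Intervals and floors cover counting error only. Some items are not reported here.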

Additional observations from a re-analysis of the deposited data

Results flagged for a closer look

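Over the 33 members in both groups, 66 groups of 6 libraries were examined for a library whose gap to its nearest neighbour exceeded Dixon's critical share of the group's range, and 8 were found, 2 among DHT groups and 6 among vehicle groups. Chance alone marks about 1 group in 20.

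FBN2 was 4.90 CPM in DHT replicate 3, where the other DHT libraries held 1.89 to 2.89 CPM. ITGB5 was 135 CPM in DHT replicate 2, with the others at 82.1 to 94.3 CPM, and 119 CPM in vehicle replicate 2, with the others at 57.3 to 70.6 CPM. LAMC1 was 23.3 CPM in vehicle replicate 2, with the others at 15.7 to 17.5 CPM. COL3A1 was 11.96 CPM in vehicle replicate 6, with the others at 2.10 to 4.42 CPM. FN1 was 24.1 CPM in the same library, the shallowest of the series, with the others at 5.04 to 9.35 CPM. ITGAE was 46.4 CPM in vehicle replicate 5, with the others at 12.01 to 20.5 CPM. ITGB1 was 143 CPM in that library, with the others at 173 to 190 CPM.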

How the results depend on the processing

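Depth limits what can be said of the lower members, since 1 count was worth 0.0456 CPM in DHT replicate 2 and 0.214 CPM in vehicle replicate 6, and ITGA5 rested on 102 DHT and 197 vehicle counts. The count of 3 members lower became 8 with the replicate block (beside 3.19% of all genes), which added COL6A3 (-1.27, adjusted p = 0.0197), COL1A2 (-0.997, 0.0214), COL1A1 (-0.35, 0.0333), LAMB1 (-0.46, 0.0348) and COL3A1 (-1.15, 0.0394). It became 5 with DESeq2 (beside 1.73% of all genes) and 9 with GC and length offsets and the block (beside 6.95%). It became 1 with no filter (beside 0.253%) or without vehicle replicates 4, 5 and 6 (beside 0.323%). An adjusted p under 0.01 also left 1, beside 58 of 16355 genes. The count of 0 members higher became 1 (ITGB5) with the block, with offsets and the block, and without both replicate 2 libraries. Beside it, 4.67%, 7.3% and 3.7% of all genes were higher in that order. The labels do not say that a shared number marks a shared passage, and the numbers were not taken as pairs (correlations of deviations from 0.26 to 0.87 except for replicate 5 at -0.24, and only the replicate 2 pair correlated best with its own number). The 320 genes higher became 764 with the block, 1194 with offsets and the block, 495 with offsets, 510 with DESeq2, 608 without both replicate 2 libraries, 92 without vehicle replicates 4, 5 and 6 and 137 at 0.01. The 144 genes lower became 522, 1137, 315, 283, 312, 55 and 58 in that order, and 93 with library totals and 90 with no filter. With each library left out, members higher ran from 0 to 1 and members lower from 1 to 3, with 1 left without vehicle replicate 3 or DHT replicate 1, 3, 4 or 6, and ITGB5 higher without vehicle replicate 2. Genes higher ran from 189 to 434 and genes lower from 86 to 199. The number of family genes detected was 37 at 1 CPM, 59 at 0.1 CPM and 15 at 10 CPM. Signs turned for 12 members, which lay between -0.20 and 0.13 with all libraries. COL4A6 became 0.002 with the block, 0.00 with RLE scaling, 0.058 with library totals, 0.009 with no filter and 0.046 without both replicate 2 libraries. COL5A2 became -0.007 without both replicate 2 libraries, -0.004 with offsets, -0.005 with offsets and the block and -0.024 without vehicle replicates 4, 5 and 6. ITGB1 became -0.028, -0.009 and -0.072 under the last 3 of these, COL16A1 -0.039 with limma-voom, and COL9A3 -0.15 and ITGAE 0.14 without vehicle replicates 4, 5 and 6. With 1 library left out, signs turned within -0.23 to 0.10 for ITGA10, -0.57 to 0.035 for COL7A1, -0.22 to 0.001 for ITGA2, -0.25 to 0.051 for LAMA5, -0.11 to 0.28 for COL16A1, -0.095 to 0.071 for COL9A3, -0.31 to 0.18 for ITGAE, -0.11 to 0.12 for COL5A2, -0.051 to 0.025 for ITGB1, -0.11 to 0.086 for COL4A6, -0.19 to 0.28 for FBN1 and -0.015 to 0.18 for COL4A5. Over the 5 lists, counts ran from 0 to 4 with 1 library left out and from 0 to 8 with the block, with DESeq2 or without both replicate 2 libraries. The 8 were other matrix proteins lower with the block, where 3 were higher, beside 3.19% lower and 4.67% higher over all genes. The cause was not tested. FBN2 passed in all of these fits, from -1.81 to -1.45.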
